A study of Bos taurus with 52 samples.

Results

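CGA, the gene for the alpha subunit shared by the pituitary glycoprotein hormones, was followed as 1 row of 31651 named genes in a table of read counts from cattle. It was read in 27 conceptuses, the elongating embryos with their membranes, and in 25 endometria, the uterine lining. The gene was selected on its measured values in these libraries: its conceptus counts by fertility class, size class, length and recipient, and its endometrial counts, were in view. All levels and fold changes of CGA below are therefore descriptions, without a test.

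The animals were heifers (Bos taurus) put in 3 fertility classes: high fertile (HF), infertile (IF) and subfertile (SF). The mRNA was sequenced from conceptuses and from endometrium. The conceptuses were all of day 17 and came from 19 pregnant recipients. Of these, 10 came from 7 SF recipients, 10 conceptuses classed as long came from 10 HF recipients and 7 classed as short came from 6 HF recipients. Some HF recipients gave 1 conceptus of each size class, and the SF conceptuses carried no size class. The endometrial groups held 5 animals each: HF heifers in pregnancy (P-HF), SF heifers in pregnancy (P-SF), both of day 17, and non-pregnant HF (NP-HF), SF (NP-SF) and IF (NP-IF) heifers. The sources used here give no day for the non-pregnant groups, and no treatment, sire or embryo source for any group. The class belongs to the recipient, so an SF conceptus is one recovered from a subfertile heifer.

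The alpha chain is common to these hormones, and the beta chain gives each its specificity. The alpha chain folds around a cystine knot in the endoplasmic reticulum, is glycosylated and pairs there with a beta subunit to form luteinizing hormone, follicle-stimulating hormone or thyroid-stimulating hormone in the pituitary. In primates and in horses the trophoblast also makes it, as part of a chorionic gonadotropin that sustains the corpus luteum. Ruminant trophoblast signals to the mother instead through interferon tau and is not known for a chorionic gonadotropin. In human trophoblast the CGA promoter is driven through cyclic AMP, protein kinase A and CREB, together with GATA, AP-2, DLX3 and other factors.

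Total counts ran from 20.5 to 47 M reads per conceptus library and from 17.1 to 27.3 M per endometrial library. No columns held identical values. The conceptus libraries carried their labelled tissue: trophectoderm keratin KRT8 stood at 4410 to 14400 CPM in every one (CPM, counts per 1 M reads after scaling of library sizes), against at most 173 CPM in endometrium. The labels set limits on what follows. In 22 conceptus samples, title and description disagreed on the animal or its length. Titles were used here because they match the table's column names. Read by the descriptions instead, no gene was called in the 3 comparisons of groups, in SF against all HF or along length (longer against shorter conceptuses were not refitted that way), and the fitted CGA difference of SF over HF long was 3.25 instead of 5.59 on the log2 scale. The sample sheet number in the descriptions also split the libraries, with 3 SF libraries, 4 HF short libraries and no HF long one on the second.

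CGA reads were few in most conceptuses and abundant in a handful, all of SF recipients. In the 10 SF conceptuses the level was 1.19 CPM in replicate 1, 110 in replicate 2, 0.487 in replicate 3, 10.8 in replicate 4 and 60.2 in replicate 5. Replicates 6 to 10 stood at 67.2, 0.421, 0.477, 2.31 and 8.51 CPM. Replicates 2, 5 and 6 thus stood far above the rest, and these 3 held 90.7% of the group's summed level. Behind them lie 2877, 1873 and 2440 reads, so that counting error was small: the exact binomial 95% interval was 106 to 114 CPM for replicate 2, 57.5 to 63 for replicate 5 and 64.5 to 69.9 for replicate 6. The lowest SF library, replicate 7, held 8 reads. These intervals cover counting error only, since the reads carried no molecular identifiers.

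The HF conceptuses held little CGA. In the 10 HF long libraries, replicates 1 to 10, the level was 1.39, 0.0667, 1.31, 0.629, 0.0641, 0.0778, 0, 0.144, 0.615 and 1.16 CPM. That range came from 0 to 54 reads, and 4 of the 10 libraries held 3 reads or fewer. Replicate 7, with no read, allows a level of up to 0.108 CPM (3 counts of its total). In the 7 HF short libraries, replicates 1 to 7, it was 0.234, 0, 0.117, 3.78, 0.98, 0.33 and 0.819 CPM. Replicate 4, with 163 reads (95% interval 3.22 to 4.41 CPM), was the highest of all HF libraries, and replicate 2 had no read and allows up to 0.0925 CPM.

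The order of the groups was clear only for SF over HF. The mean was 26.2 ± 38.9 CPM (SD, n = 10) in SF, 0.894 ± 1.32 (n = 7) in HF short and 0.546 ± 0.561 (n = 10) in HF long, and the medians were 5.41, 0.33 and 0.379 CPM. The groups overlapped: 5 of the 10 SF libraries exceeded the highest HF library, and 6 exceeded the highest HF long library. The other SF libraries lay among the HF ones. Of the 100 pairs of an SF and an HF long library the SF one was higher in 83, and of the 70 pairs with HF short in 59. HF short was the higher in 38 of 70 pairs with HF long (54.3%), so that the neighbours HF short and HF long did not differ beyond their spread. With conceptuses of 1 recipient averaged, the medians were 5.67 CPM over 7 SF recipients, 0.282 over 6 HF short and 0.379 over 10 HF long.

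**Figure D1:**
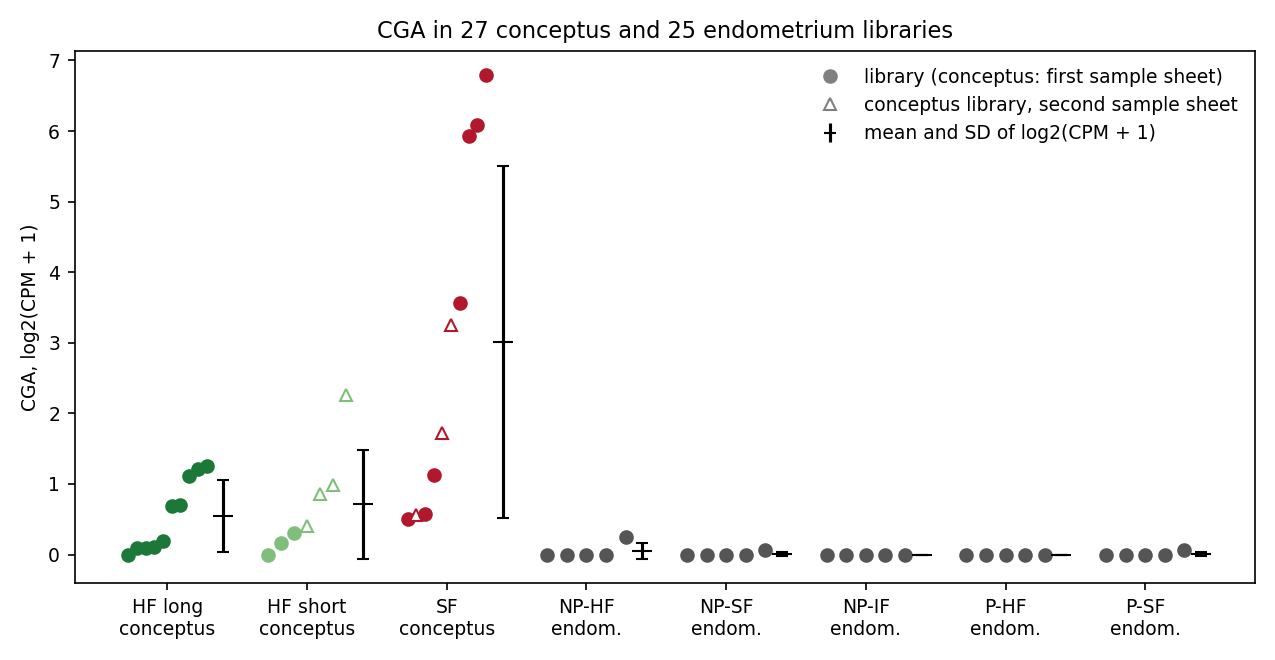
CGA level, log2(CPM + 1), of every conceptus library (HF long, HF short and SF) and endometrial library (3 non-pregnant groups, then P-HF, then P-SF); circles are libraries (for conceptuses, of the first sample sheet), open triangles conceptus libraries of the second sheet, and the bar beside each group its mean and SD. SF libraries spread from 0.421 to 110 CPM, while no HF conceptus exceeded 3.78 CPM and no endometrium exceeded 0.19 CPM.

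The spread inside SF was unusual for a gene of this table. The SD of log2(CPM + 1) of CGA over the 10 SF libraries was 2.5, against a median of 0.32 over the 16330 genes tested. A larger SD was found for 6 genes: DDX3Y, EIF2S3Y and UTY, which lie on the Y chromosome, XIST, the RNA of the inactive X, ABCG5, a sterol transporter subunit, and LOC404105. In HF long the SD of CGA was 0.51 and in HF short 0.77. The 6 SF conceptuses with DDX3Y over 10 CPM had CGA at 0.477 to 110 CPM, and the 4 under it at 0.421 to 10.8 CPM, so the 3 highest CGA libraries were all among the 6. In HF the ranges were 0 to 3.78 CPM over 8 conceptuses above that DDX3Y level and 0 to 1.31 over 9 below it. Among those 8, HF long replicates 1 and 9 held DDX3Y at 39 and 46.4 CPM together with XIST at 57.2 CPM in each. Their CGA was at 1.39 and 0.615 CPM, and why they held both transcripts was not tested.

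Fitted with edgeR over all 3 groups, with the sample sheet as a covariate, CGA was 5.59 ± 1.12 (log2, SE) higher in SF than in HF long. That is 48.3-fold, and the SF mean rests on the 3 high libraries. Against HF short the difference was 4.41 ± 1.71, and against all 17 HF conceptuses 5.39 ± 0.96. HF short minus HF long was 1.18 ± 2.04, smaller than its SE. Leaving out any 1 library, or both conceptuses of any 1 recipient, kept SF minus HF long between 4.93 and 5.94 and SF minus HF between 4.79 and 5.84. The lowest of each came without the recipient of SF replicates 5 and 6. Replicate 2 came from another recipient, so every omission kept at least 1 of the 3 high libraries. SF minus HF short ran from 3.27 to 5.79 over the same omissions, the lowest without the recipient of HF short replicate 2 and HF long replicate 3, the highest without that of SF replicates 1 and 8.

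**Figure D2:**
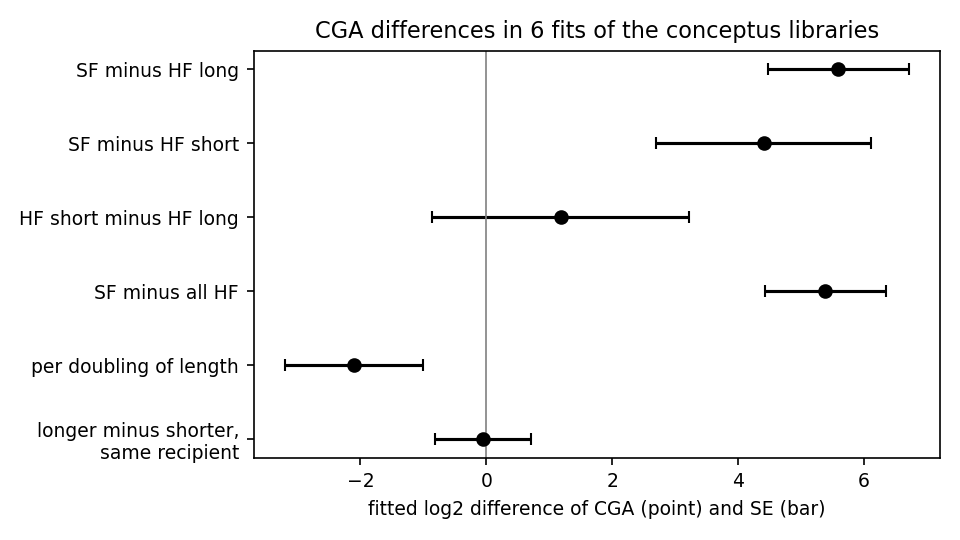
Fitted log2 difference of CGA (point) with its SE (bar) in 6 fits of the conceptus libraries; the vertical line marks no difference. The 3 fits with SF lie at 4.41 to 5.59, and HF short minus HF long (1.18) and longer minus shorter conceptus of a recipient (-0.05) lie within their SE of 0.

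Within the sample sheets SF had the higher median on both, and the order of the HF size classes was not stable. On the first sheet the 7 SF libraries ran from 0.421 to 110 CPM with a median of 10.8, and the 3 HF short libraries from 0 to 0.234. On the second sheet the 3 SF libraries held 0.477, 2.31 and 8.51 CPM and the 4 HF short libraries 0.33 to 3.78, so that these overlapped. All HF long libraries, at 0 to 1.39 CPM, were on the first sheet. With the first sheet alone SF minus HF short was 8.23 on the log2 scale and HF short minus HF long turned to -2.22. With the recipient as a fixed block and the sheet as a covariate among HF libraries HF short minus HF long was -3.95. That value rests on the recipients with both size classes on the same sheet. These gave HF long replicate 3 with HF short replicate 2, and HF long replicate 4 with HF short replicate 3. The short ones held 0 and 4 reads. The direction between the HF size classes thus depended on the fit.

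Conceptus length, given in 20 titles, did not order the CGA levels. The lengths ran from 1.5 cm upward, with a median of 4 cm, in 9 SF, from 9 to 17 cm in 5 HF long and from 1.2 to 6.9 cm in 6 HF short conceptuses. For 3 of the 20, HF short replicates 2 and 3 and HF long replicate 10, the title gave no unit and cm was assumed. The correlation of log2 length with log2(CPM + 1) of CGA was r = -0.11 and rho = -0.15 over the 20 libraries, and r = 0.01 without the 2 farthest lengths. These points share 12 recipients. In the 9 SF conceptuses r was 0.07 and rho 0.12. In the 6 HF short ones r was -0.77 and rho -0.89 (-0.73 for r without the 2 farthest lengths), and sheet and length cannot be told apart there, since the 4 of the second sheet were the shortest. The fitted slope, with the sheet as a covariate and no term for fertility class, was -2.1 ± 1.1 per log2 unit of length. It was 0.33 without the covariate and -0.26 with the recipient as a random block, so its sign followed the model. The slope mixes length with class, since HF long conceptuses were long and low in CGA.

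**Figure D3:**
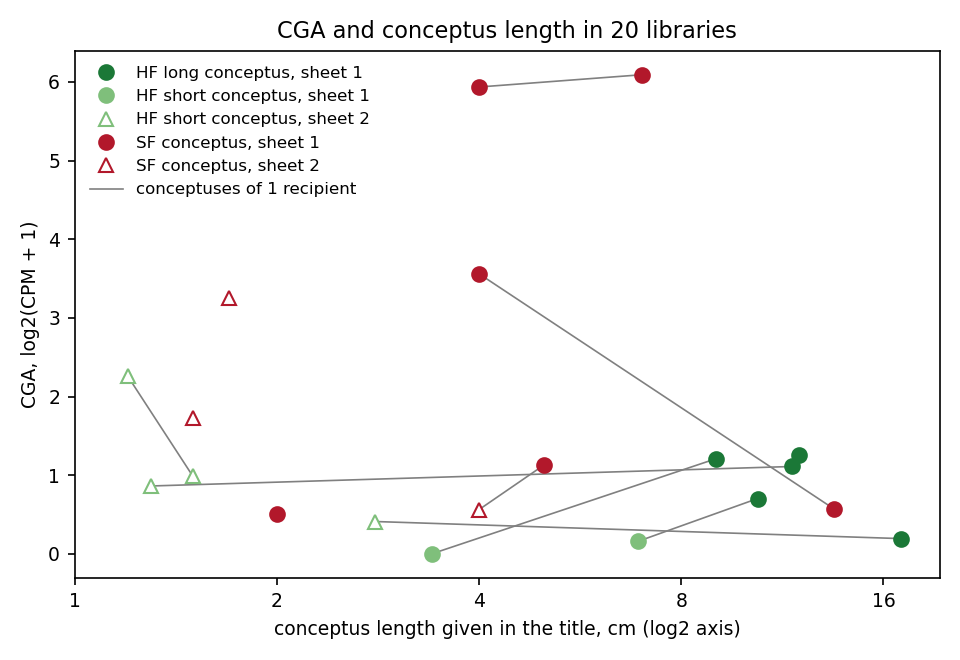
CGA level, log2(CPM + 1), against conceptus length in cm (log2 axis) for the 20 conceptuses with a length in the title; colours are groups, filled circles the first and open triangles the second sample sheet, and grey lines join conceptuses of 1 recipient. The 2 highest SF conceptuses with a length were 4 and 7 cm long and shared a recipient, and the longest conceptus, 17 cm, stood at 0.144 CPM.

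Conceptuses that shared a uterus were compared in 8 recipients. The longer one held more CGA in 5 of the 8 pairs, the shorter one in 3, and the fitted difference of longer minus shorter was -0.05 ± 0.76. With the sample sheet added to that fit the difference was -0.39. Only 2 pairs were within 2-fold. In the recipient of SF replicates 5 and 6 both were high, at 60.2 CPM in the 4 cm and 67.2 CPM in the 7 cm conceptus, a ratio of 1.12. HF long replicate 10 and HF short replicate 7 stood at 1.16 and 0.819 CPM, a ratio of 1.42.

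In the other pairs CGA differed between conceptuses of the same recipient. The largest ratio was in an SF recipient: SF replicate 4, of 4 cm, held 10.8 CPM (9.73 to 12) and SF replicate 3, the longest SF conceptus, held 0.487 CPM, 22.3-fold less. SF replicates 1 and 8 differed 2.49-fold, at 5 and 4 cm. HF short replicates 4 and 5 differed 3.86-fold, at 1.2 and 1.5 cm. These are differences between conceptuses of 1 class and 1 uterus, but SF replicates 1 and 8 were on different sample sheets. So were HF long replicate 8 and HF short replicate 6, and HF long replicate 10 and HF short replicate 7. Sheet and conceptus cannot be told apart in such pairs. HF long replicate 4 (0.629 CPM) exceeded HF short replicate 3 (0.117) by 5.36-fold on 14 against 4 reads. HF short replicate 6 (0.33 CPM) exceeded HF long replicate 8 (0.144) by 2.3-fold, also on 14 against 4 reads. HF long replicate 3 held 1.31 CPM where its partner HF short replicate 2 held no read.

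The endometrium held almost no CGA. Of the 25 libraries 22 had no read, and the 6 reads in all were 4 in NP-HF replicate 4 (0.19 CPM), 1 in NP-SF replicate 2 (0.0457) and 1 in P-SF replicate 1 (0.0446). The group means were 0.0379 ± 0.0848 CPM (SD, n = 5) in NP-HF, 0.00915 ± 0.0205 in NP-SF and 0.00892 ± 0.0199 in P-SF. In NP-IF and P-HF all were at 0, which allows up to 0.0266 CPM and 0.0281 CPM over the 5 libraries. No order of the 5 groups could be detected at this depth. For 8 recipients both tissues were sequenced. The heifer whose conceptus, SF replicate 2, held 110 CPM had no CGA read in its endometrium, and the only such endometrium with a read belonged to SF replicates 1 and 8, at 1.19 and 0.477 CPM. The tissues were extracted with different reagents, so no test was made between them.

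The hormone partners of CGA were at or near 0 in the same conceptuses. FSHB, the beta subunit of follicle-stimulating hormone, had 0 to 131 reads (median 9), at most 2.98 CPM, in HF short replicate 5. It stood at 1.49, 0.193 and 0 CPM in SF replicates 2, 5 and 6, the 3 with high CGA. LHB, the beta subunit of luteinizing hormone, had 0 to 12 reads and at most 0.313 CPM. TSHB, that of thyroid-stimulating hormone, had 0 to 3 reads, and GPHB5, the beta subunit of thyrostimulin, none in any of the 27. GPHA2, the other alpha subunit, had 0 to 14 reads, with its highest level, 0.497 CPM, in SF replicate 2. In these 3 libraries no beta subunit was above 1.49 CPM.

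The receptors were as scarce. LHCGR, the receptor for luteinizing hormone and chorionic gonadotropin, had 0 to 29 reads and at most 0.757 CPM, FSHR 0 to 6 reads and TSHR 0 to 6 reads. Of the 8 other members of this list 1, FSHB, had enough reads for the test, and in SF against HF long it differed by 1.06 ± 0.73 (edgeR adjusted p = 0.36). In endometrium LHB read 52 to 601 counts per library (median 17.9 CPM). It lies next to RUVBL2 and SAXO3 in the RefSeq annotation, and the sources used here do not say whether counting used strand, so the source of those reads is uncertain.

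The neighbours of CGA on chromosome 9 were not called between SF and HF long. ZNF292, a zinc finger gene on one side, ran from 25.3 to 80.7 CPM, had rho = 0.46 with CGA over the 27 libraries and differed by 0.06 ± 0.18 between SF and HF long (edgeR adjusted p = 0.86). SYNCRIP, an RNA-binding protein gene on the other side, differed by 0.04 ± 0.11 (edgeR adjusted p = 0.84) and had rho = -0.02. GJB7, a connexin gene, was at 0 to 0.503 CPM and HTR1E, a serotonin receptor gene, at 0 in all 27. No gene overlapped CGA in the RefSeq table of assembly ARS-UCD2.0.

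Levels of cell type markers overlapped between the groups. In bulk tissue fewer cells of a type and less RNA per cell cannot be told apart. The 12 trophectoderm markers summed to 13900 to 35700 CPM in SF, 13800 to 29300 in HF long and 10500 to 29000 in HF short, and their mean log2 level had rho = -0.07 with CGA over the 27 libraries, some of which share a recipient. Of 8 markers of binucleate and giant trophoblast, the hormone-making cells of the later placenta, 6 averaged under 1 CPM and PRP2 was at 0 throughout (rho = -0.09). The lists for endoderm (18 genes), mesoderm (13) and epiblast (11) had rho of 0.23, 0.12 and 0.29. The mean log2 level of the endoderm list was 3.39, 3.33 and 3.11 in SF replicates 2, 5 and 6, above the SF median of 3.05, and that of the epiblast list was 2.13, 2.24 and 2, below the SF median of 2.48. For mesoderm it was 0.57, 1.03 and 0.88 (SF median 0.91), for trophectoderm 6.37, 6.54 and 6.58 (SF median 6.37) and for binucleate cells 1, 1.09 and 1.1 (SF median 0.99). The part of these cell types in the CGA levels was not tested.

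Uterine transcripts were low but varied. The 13 uterine markers summed to 4.25 to 102 CPM in SF, 6.37 to 74.6 in HF long and 4.28 to 145 in HF short, with rho = 0.11. Of these 9 averaged under 1 CPM. Their mean log2 level was 0.46, 1.08 and 1.32 in SF replicates 2, 5 and 6, against an SF median of 0.55, so that the latter 2 stood above it. The part of uterine transcripts in the CGA levels was not tested. OXTR, the oxytocin receptor, named after its values were seen, had rho = 0.65 with CGA and ran from 0 to 17.6 CPM. That was the highest rho of the list. The other members ran from -0.43 for HBA to 0.4 for ESR1, PGR and PTPRC. DCN, the one of the list with the highest median in endometrium (2860 CPM, against 8.85 for OXTR), had rho = -0.39. Endometrium itself held almost no CGA, as given above.

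Of genes whose products act on the CGA promoter in trophoblast or pituitary, several were lower in the SF conceptuses, where CGA was higher. Against HF long, 5 of the 23 tested members of that list of 26 fell and none rose, beside 8.9% of all 16330 genes called (3.8% higher, 5.1% lower). The list's median log2 difference was -0.04, against 0.026 over all genes. With edgeR on counts summed per recipient 1136 genes were called instead of 1454, and with limma-voom and the recipient as a random block 424. The latter changes the tool and the block together, and it is meant where a p with the recipient block is given below.

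GATA3, a trophoblast GATA factor, ran from 26.6 to 67.6 CPM in SF (median 46) and from 48.3 to 208 in HF long (median 103). It fell by 1.35 ± 0.27 (edgeR adjusted p = 0.0093), and 6 of the 10 SF libraries lay below every HF long library. MSX2, a homeobox repressor that opposes DLX3 on this promoter, fell by 1.03 ± 0.23 (adjusted p = 0.01), from 25.8 ± 8.13 CPM (SD, n = 10) in HF long to 12.9 ± 2.55 (n = 10). DLX3, a homeobox activator, fell by 1.09 ± 0.25 (adjusted p = 0.012), and 8 of 10 SF libraries were below all HF long ones. Activator and repressor thus moved the same way. GATA2 fell by 0.79 ± 0.21 (adjusted p = 0.024, but 0.057 with the recipient block), with SF at 23.8 to 85.8 and HF long at 41.1 to 106 CPM. TFAP2C, an AP-2 factor and the last called member, named after its values were seen, fell by 0.52 ± 0.14 (adjusted p = 0.027).

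The 3 SF libraries with the most CGA differed among themselves in these factors. GATA3 stood at 49.7, 43.2 and 67.6 CPM in SF replicates 2, 5 and 6, around the SF median of 46. MSX2 was at 13.3, 13.6 and 17.9 CPM there, just above the SF median of 13.2 in replicates 2 and 5 and further above it in replicate 6. The values of replicate 6 were the highest of SF for both genes. DLX3 was at 4.09, 3.47 and 3.94 CPM, around its SF median of 3.97. GATA2 was at 32.5, 50.2 and 58.9 CPM (SF median 47) and TFAP2C at 53, 64.6 and 78.4 CPM (SF median 69.4), with replicate 2 toward the low end of SF for both. Over all 27 libraries rho with CGA was -0.44 for GATA3, -0.49 for MSX2 and -0.21 for DLX3, values that hold the class difference as well.

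Genes of cyclic AMP and protein kinase A signalling were called in both directions: of 33 listed, 32 in the table and 26 tested, 4 fell and 1 rose in SF against HF long (list median -0.12), where 5.1% of all genes were called lower and 3.8% higher. PRKACB, a catalytic subunit of protein kinase A, rose by 1.02 ± 0.28 (edgeR adjusted p = 0.025). Its range was 4.28 to 12 CPM in SF and 1.65 to 6.86 in HF long, with 3 SF libraries above all HF long ones. In SF replicates 2, 5 and 6 it stood at 4.28, 5.47 and 4.3 CPM, below its SF median of 5.89. PRKACA, the other main catalytic subunit, fell by 0.73 ± 0.21 (adjusted p = 0.03, but 0.11 with the recipient block).

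PDE8A, a phosphodiesterase that breaks down cyclic AMP, fell by 0.83 ± 0.18 (edgeR adjusted p = 0.01), from 38.3 ± 8.41 CPM (SD, n = 10) to 22.4 ± 6.8 (n = 10). ADCY9, an adenylate cyclase that makes it, fell by 0.52 ± 0.14 (adjusted p = 0.025, but 0.07 with the block). CREBBP, the coactivator of CREB, was named after its values were seen and fell by 0.66 ± 0.2 (adjusted p = 0.037). Its call against all HF, given below, was lost in 5 of 8 alternatives, with an adjusted p = 0.13 with the block. GNAS, the stimulatory G protein, was not called (-0.03 ± 0.15, adjusted p = 0.93).

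Of 24 listed genes of glycoprotein folding and hormone glycan synthesis 21 were tested, of which 2 fell and none rose (list median -0.17). That share is near the 8.9% of all genes called and is not a result about the list. PDIA3, a disulfide isomerase that works with calnexin on glycoproteins, fell by 0.78 ± 0.17 (edgeR adjusted p = 0.011). It ran from 252 to 428 CPM in SF and from 351 to 785 in HF long, with 8 SF libraries below all HF long ones. MGAT1, which starts complex N-glycans, fell by 0.33 ± 0.09 (adjusted p = 0.024, but 0.056 with the block). The sulfotransferases CHST8 and CHST9, which cap pituitary hormone glycans, had too few reads for the test.

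Of 24 listed secreted trophoblast products 14 were tested, of which 2 fell (list median -0.51) and none rose. Over all genes 5.1% were called lower and 3.8% higher, so with 14 genes these counts say little about the list. TKDP2, a trophoblast Kunitz domain protein, fell by 5.28 ± 1.09 (edgeR adjusted p = 0.0093, but 0.23 with the recipient block). HF long replicate 8 alone reached 1060 CPM, and the medians were 3.83 CPM in SF and 5.12 in HF long, so that the fold rests largely on that library; reads may also be shared among TKDP copies. CYP11A1, the first enzyme of steroid synthesis, fell by 1.7 ± 0.51 (adjusted p = 0.036, but 0.16 with the block), from 7.25 ± 3.63 CPM (SD, n = 10) to 2.27 ± 1.07 (n = 10). The abundant pregnancy-associated glycoprotein PAG11 (0.16 ± 0.45, adjusted p = 0.85) and TKDP1 (-0.3 ± 0.29, adjusted p = 0.54) were not called.

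**Figure D4:**
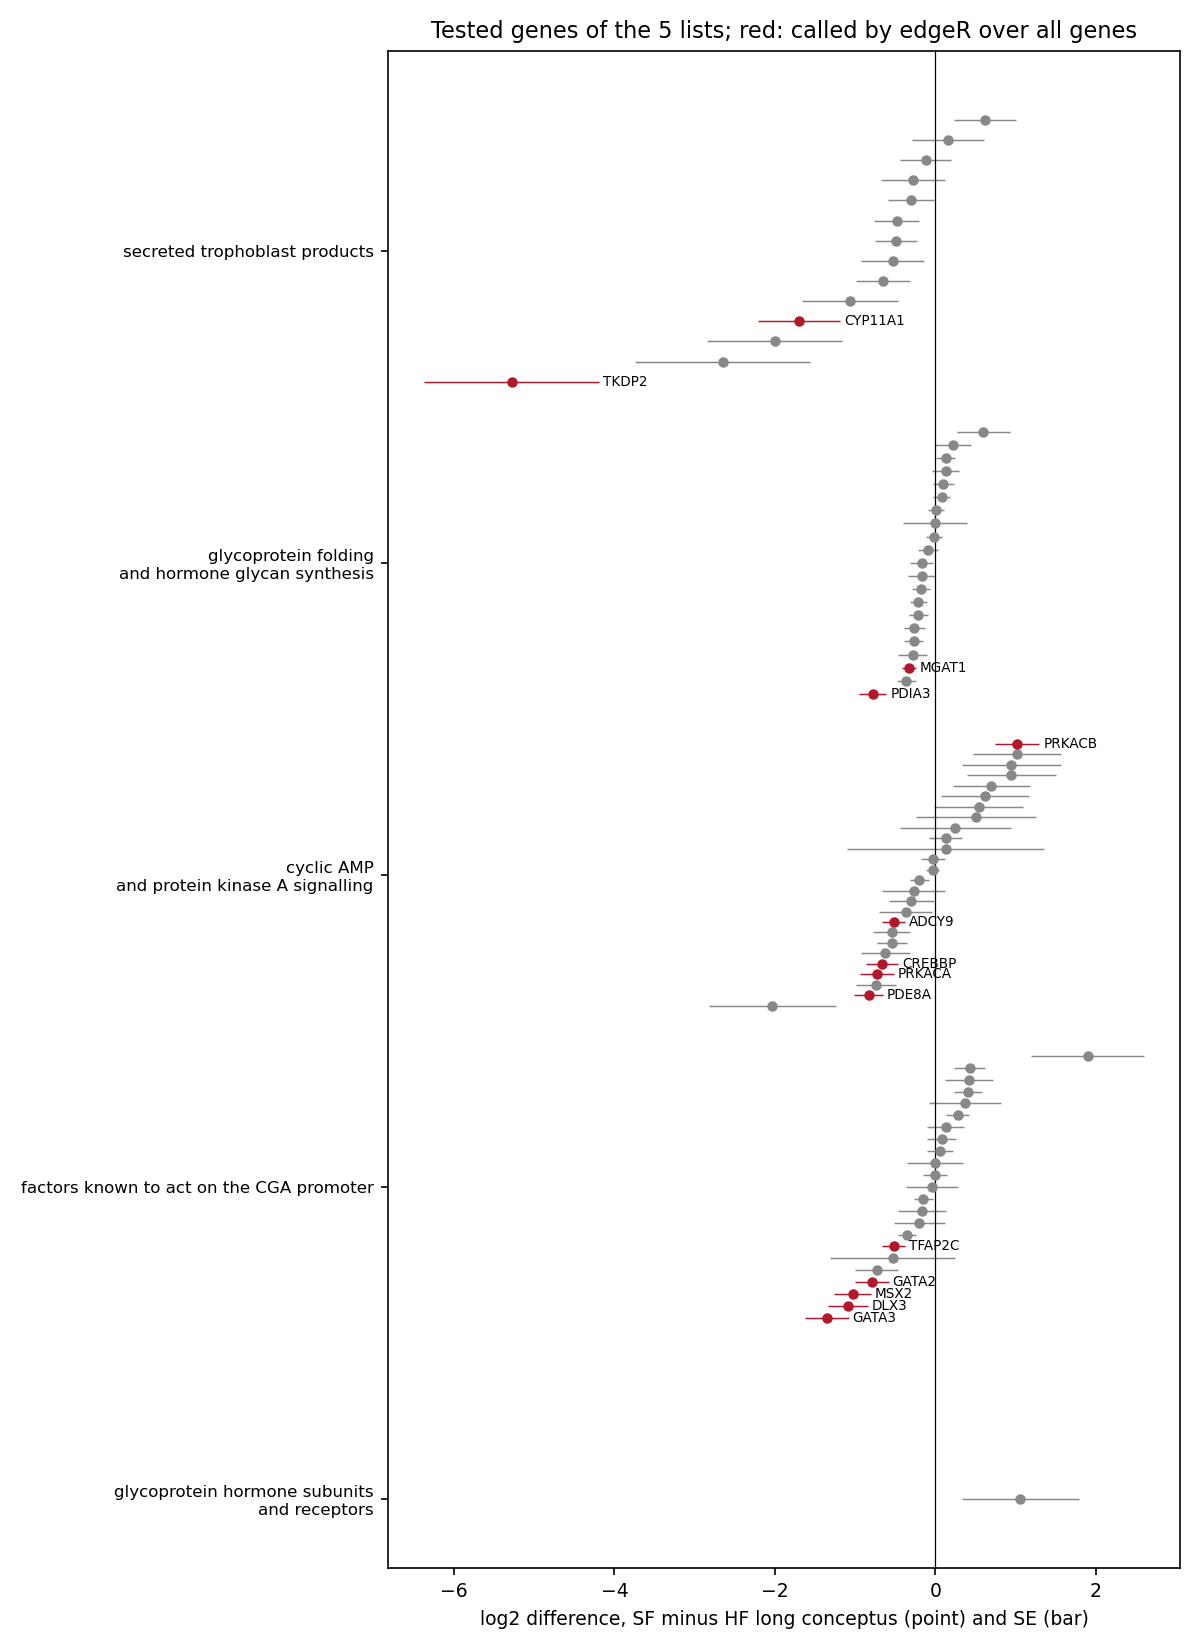
Log2 difference of SF minus HF long conceptuses (point) with its SE (bar) for the tested genes of the 5 lists, ordered within each list; red points with names are called by edgeR at an adjusted p under 0.05 over all genes. Of the 14 called genes 13 lie below 0 and PRKACB above it.

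Against all HF conceptuses, a comparison that shares the SF libraries and the HF long libraries with the one above, 7.79% of 15678 genes were called (3.64% higher, 4.16% lower). Of the promoter factors 4 of 23 fell: GATA3 (-1.16 ± 0.24, edgeR adjusted p = 0.0097), MSX2 (-0.9 ± 0.2, adjusted p = 0.0099), DLX3 (-0.92 ± 0.22, adjusted p = 0.014) and CREB1, the cyclic AMP response factor itself (-0.36 ± 0.1, adjusted p = 0.023). With the recipient block DLX3 and CREB1 had an adjusted p = 0.058 each. CREB1 was at 6.37 to 11.2 CPM in SF and 9.41 to 12.9 in HF long. Of the cyclic AMP genes 3 of 24 fell, PDE8A (-0.72 ± 0.16), ADCY9 (-0.44 ± 0.12) and CREBBP (-0.59 ± 0.17), and with the block PDE8A alone was called. PDIA3 (-0.67 ± 0.15) and MGAT1 (-0.34 ± 0.08) fell among 21 folding genes, and TKDP2 (-4.24 ± 1.07) and CYP11A1 (-1.45 ± 0.44) among 14 secreted products. With the block MGAT1 was still called, while PDIA3 (adjusted p = 0.05), TKDP2 (adjusted p = 0.3) and CYP11A1 (adjusted p = 0.31) were not.

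No listed gene was called in the other comparisons. Against HF short, 0.00612% of 16330 genes were called in SF, which is 1 gene, SERPINF2, a plasmin inhibitor outside these lists, named after its values were seen. GATA3 there was at -0.88 ± 0.3 (edgeR adjusted p = 0.34), TFAP2C at -0.2 ± 0.16, GNAS at 0.17 ± 0.17, PRKAR2A, a regulatory subunit of protein kinase A, at -0.13 ± 0.13, and the chaperone HSP90B1 at -0.12 ± 0.2. P4HB, a disulfide isomerase, was at 0.01 ± 0.13, TKDP1 at -0.06 ± 0.31, PAG11 at 0 ± 0.45 and FSHB at 0.16 ± 0.8. The means of GATA3 in HF long and HF short were 109 ± 49.1 and 94.3 ± 61.8 CPM (SD), against 45.6 ± 11.6 in SF. HF short replicate 7, at 230 CPM, raised the HF short mean. The medians were 103 CPM in HF long, 71.6 in HF short and 46 in SF. The HF short range, 55.3 to 230 CPM, overlapped that of SF, 26.6 to 67.6. Between HF short and HF long 0% of genes were called by edgeR, with 599 at an unadjusted p under 0.05 and 2 called by DESeq2, and GATA3 was at -0.48 ± 0.34 (adjusted p = 0.93). TFAP2C was at -0.32 ± 0.18, GNAS at -0.2 ± 0.19, PRKAR2A at -0.07 ± 0.15, HSP90B1 at -0.16 ± 0.22 and P4HB at -0.1 ± 0.15. The secreted TKDP1 (-0.24 ± 0.34) and PAG11 (0.16 ± 0.5) and the hormone subunit FSHB (0.91 ± 0.91) had differences close to or under their SE.

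Along length 0% of 15592 genes were called (1849 at an unadjusted p under 0.05 and 45 by DESeq2). That fit held the sample sheet but no term for fertility class. The slope per log2 unit was 0.27 ± 0.2 for GATA3, 0.1 ± 0.09 for TFAP2C, 0.12 ± 0.1 for GNAS, -0.02 ± 0.08 for PRKAR2A, 0.09 ± 0.11 for HSP90B1 and 0.16 ± 0.07 for P4HB. It was 0.35 ± 0.17 for TKDP1, 0.14 ± 0.24 for PAG11 and 0.09 ± 0.46 for FSHB. Between longer and shorter conceptuses of 1 recipient 0% of 15337 genes were called (715 at an unadjusted p under 0.05 and 4 by DESeq2). GATA3 differed by 0 ± 0.21 there, TFAP2C by 0.1 ± 0.12, GNAS by 0.14 ± 0.12 and PRKAR2A by -0.19 ± 0.13. HSP90B1 was at 0.32 ± 0.14, P4HB at -0.03 ± 0.13, TKDP1 at 0.39 ± 0.21, PAG11 at -0.14 ± 0.16 and FSHB at -0.12 ± 0.73.

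Genes ranked by how closely they followed CGA over the 27 conceptus libraries were sought among the 9897 genes that averaged 5 CPM or more, by Spearman's rho of log2(CPM + 1). A rho over 0.7 was found for 12 genes and under -0.7 for 8. These libraries share recipients and differ in class, and no p is given. The most alike were GPR116 (0.76), an adhesion receptor, BNIP3 (0.75), a mitochondrial protein induced by low oxygen, PIGN (0.75), an enzyme of glycolipid anchors, and ACPP (0.74), an acid phosphatase. FUT2 (0.72), a fucosyltransferase, IL20RB (0.72), a cytokine receptor subunit, and ATP10D (0.71), a lipid flippase, followed.

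Within the classes the likeness held to different degrees. Over the 10 SF libraries alone rho was 0.76 for BNIP3, 0.71 for FUT2, 0.66 for IL20RB and 0.24 for ACPP, and over the 17 HF libraries it was 0.62, 0.6, 0.58 and 0.72. GPR116 had 0.55 and 0.66. SF replicate 2, with CGA at 110 CPM, held 156 CPM of ACPP and 16.3 CPM of IL20RB, their highest values. In SF replicates 5 and 6 ACPP stood at 28.6 and 27.9 CPM, below its SF median of 32.8. IL20RB stood at 10.3 and 9.75 CPM there, above its SF median of 8.08. HF short replicates 4 and 5 held 70.5 and 64.2 CPM of ACPP, with CGA at 3.78 and 0.98 CPM. FUT2 was highest in SF replicate 5, at 47.1 CPM.

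Their own difference between SF and HF long was smaller than that of CGA in log2 units. IL20RB rose by 1.02 ± 0.24 (edgeR adjusted p = 0.015), from 3.09 to 7.25 CPM in HF long to 4.19 to 16.3 in SF. ATP10D rose by 0.78 ± 0.2 (adjusted p = 0.021), with SF at 16.2 to 30.1 and HF long at 7.13 to 16 CPM. HF short replicates 4 and 5, at 20.5 and 21.8 CPM of ATP10D, lay inside the SF range. ACPP rose by 1.45 ± 0.4 (adjusted p = 0.028) and FUT2 by 0.79 ± 0.24 (adjusted p = 0.041). GPR116 (1.91 ± 0.74, adjusted p = 0.097), BNIP3 (0.63 ± 0.32, adjusted p = 0.2) and PIGN (0.46 ± 0.17, adjusted p = 0.089) were not called. A gene that follows CGA across these libraries also carries the class difference of CGA, so these differences are no independent evidence.

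The genes most opposed to CGA were SLC39A6 (-0.73), a zinc transporter, SLC25A4 (-0.72), the mitochondrial ADP/ATP carrier, SUV39H1 (-0.72), a histone H3 lysine methyltransferase, and ARHGAP22 (-0.71). SLC39A6 fell by 0.66 ± 0.14 in SF against HF long (edgeR adjusted p = 0.0096), SUV39H1 by 0.36 ± 0.11 (adjusted p = 0.041) and ARHGAP22 by 0.79 ± 0.23 (adjusted p = 0.035). SLC25A4 was at -0.22 ± 0.12 (adjusted p = 0.24). These genes were picked from the same libraries, in which CGA was higher in SF, so their falls in SF are no independent evidence. Over the 10 SF libraries alone rho was -0.39 for SLC39A6, -0.61 for SLC25A4, -0.76 for SUV39H1 and -0.79 for ARHGAP22. Over the 17 HF libraries it was -0.63, -0.43, -0.36 and -0.42.

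**Figure D5:**
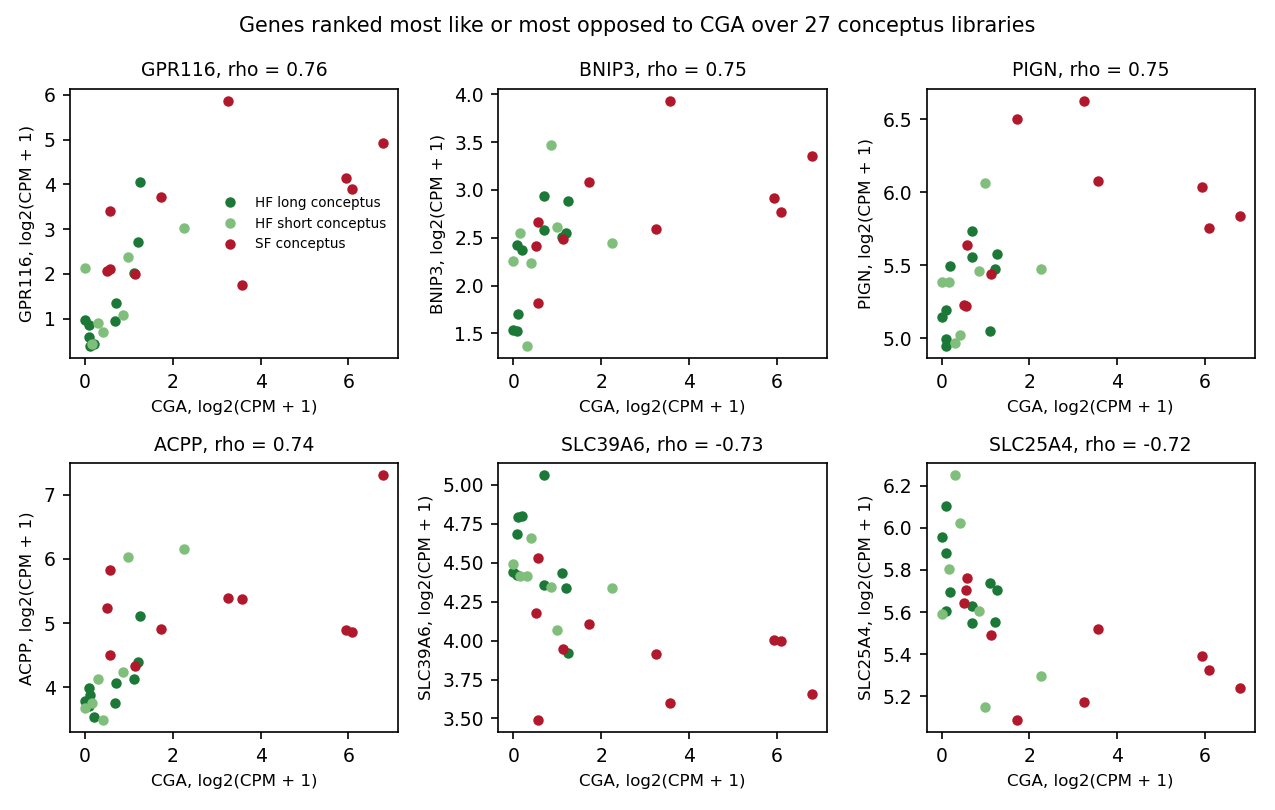
Level of 4 genes most alike and 2 genes most opposed to CGA (y axis, log2(CPM + 1)) against CGA (x axis, log2(CPM + 1)) in the 27 conceptus libraries, coloured by group, with Spearman's rho above each panel. The HF libraries crowd at the left, and SF replicate 2, at 110 CPM of CGA, is the rightmost point and the highest one for ACPP, at 156 CPM.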

How the data were processed

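The authors deposited 1 table of whole-number read counts per gene, not normalized, for 52 libraries. Per the labels' protocols libraries were made with a TruSeq stranded mRNA kit, after Isol-RNA Lysis Reagent for endometrium and an AllPrep kit for conceptuses. Per the submitters' processing notes HISAT2, StringTie and edgeR were used with build UMD3.1. The sources used here give neither versions nor the strand setting of counting. Lines without a gene name (1020) were left out. Sequences of CGA were not analysed here.

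Conceptus genes were filtered with filterByExpr (minimum count 10, minimum total 15), scaled by TMM and tested with edgeR 4.0.16 in R 4.3.3 (glmQLFit, glmQLFTest, Benjamini-Hochberg over all tested genes, called at 0.05). The SE of an edgeR difference or slope is its absolute log2 value divided by the square root of its F statistic, so it is derived from the test. limma 3.58.1 and DESeq2 1.42.0 served as alternatives. Intervals are exact binomial at 95%, and 3 counts give the limit for a count of 0. The edgeR test of SF against HF long was tried on simulated counts without recipient or sheet effects, so that trial does not cover shared recipients. The filter used the groups, and CPM were scaled within each tissue.

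CGA and all lists were chosen with earlier results of these data known. Per list and comparison up to 4 called members with the smallest p were named, or else the 2 most abundant. Genes like CGA were the 8 highest and 4 lowest by Spearman's rho, without LOC names. A result among these is not reported here.

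The recipient pairs conceptuses, per the titles, with a consensus correlation of 0.3 in limma. Replicate numbers follow accession order and pair nothing. Conceptuses of 1 recipient share an animal. The SE and p-values of the group fits without the block treat them as independent and can be too small. Alternatives were size factors, DESeq2, no filter, no sheet covariate, the first sheet, counts summed per recipient, the recipient block, animals by description, and omitted libraries or recipients.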

Additional observations from a re-analysis of the deposited data

Results flagged for a closer look

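Of 86 groups of CGA and other named genes, 13 held a library far from the others of its group (Dixon's gap at the 95% level). Chance passes that level in about 1 in 20 groups of normally distributed values, which counts near 0 are not. For CGA these were NP-HF replicate 4 at 0.19 CPM, P-SF replicate 1 at 0.0446 and NP-SF replicate 2 at 0.0457, each with all others at 0, and HF short replicate 4 at 3.78 CPM with the next at 0.98. Where all others are at 0 a library passes the rule with any read, so the endometrial flags carry no weight. No SF library passed the rule for CGA, since several were high.

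HF short replicate 7 stood apart for ADCY9 (32.7 CPM, next 19.3), GATA3 (230 CPM, next 100) and BNIP3 (10.1 CPM, next 5.1). HF long replicate 1 stood apart for GPR116 (15.7 CPM, next 5.55) and ACPP (33.4 CPM, next 20), and HF long replicate 8 for TKDP2 (1060 CPM, next 191). The others were SF replicate 10 for GPR116 (57 CPM, next 29.5), SF replicate 2 for ACPP (156 CPM, next 55.8) and HF short replicate 5 for PIGN (66 CPM, next 43.5).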

How the results depend on the processing

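CGA stayed higher in SF than in HF long, HF short and all HF under each alternative run, at 3.25 to 6.01, 1.16 to 8.23 and 3.16 to 6.31 on the log2 scale. A difference was counted as moved when it shifted by at least 2.67 log2 units, the pooled SD of log2 CGA within the 3 conceptus groups. By that wide limit it moved with the first sheet alone (SF minus HF short 8.23, HF short minus HF long -2.22) and with animals taken from the descriptions (SF minus HF short 1.16). It also moved with the recipient as a fixed replicate block and the sheet in HF (HF short minus HF long -3.95). Not counted were SF minus HF long at 3.25 instead of 5.59 by the descriptions, and the slope on length at 0.33 instead of -2.1 without the sheet covariate. With limma-voom and the recipient as a random replicate block SF minus HF long was 4.53, SF minus HF short 3.57, SF minus HF 4.17 and HF short minus HF long 0.97. Leaving out a library or a recipient gave 4.93 to 5.94 for SF minus HF long, 3.27 to 5.79 for SF minus HF short, 0.03 to 2.66 for HF short minus HF long, 4.79 to 5.84 for SF minus HF and -2.65 to -1.21 for the slope on length. These omissions were added after seeing the data, and each kept SF replicate 2 or SF replicates 5 and 6, the high ones. Leaving out a pair gave -0.51 to 0.52 for longer minus shorter, and its sign turned with DESeq2 (0.24).

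Counts of called genes moved more. DESeq2 called 2217 genes in SF against HF long, 125 against HF short, 1925 against HF, 2 between HF sizes (CNGB3 and a transfer RNA gene), 45 along length and 4 between pairs (BCL2L14, TMEM132C, ZNF589 and a gene of LOC name). limma-voom with the random block, which changes tool and block together, left 424, 0 and 270 in SF against HF long, HF short and HF. edgeR on counts summed per recipient left 1136, 0 and 460. Animals by description left 0 in all 3, and were not tried for the pairs. Without the sheet covariate 19 genes were called against HF short and 417 along length, with other size factors 13 and with the first sheet alone 0 against HF short. Without the filter 3 were called along length (LAMA4-3, PAG5 and PRPS1L1) and 1, of LOC name, between pairs. These few genes were named after their values were seen. None of the 23 differences named in lists reversed, 132 of their values under alternatives were still called and 52 were not, 23 of these with animals by description. The causes were not tested. At the depths here 5 HF libraries held 3 CGA reads or fewer, which limits the order within HF.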
